A study of Mus musculus with 8 samples.

Results

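The genes described here form a short signaling route of fibroblasts, from fibroblast growth factor (FGF) ligands through FGF receptors to genes that switch on, or feed back on, the kinase ERK. They are the ligands Fgf2, Fgf7 and Fgf10, the receptors Fgfr1 and Fgfr2, the feedback inhibitors Spry1, Spry2 and Spry4, the ERK phosphatase Dusp6 and the ETS transcription factor Etv4. All 10 were picked by gene symbol from a count table of 50578 genes, each was listed once, and all 10 were among the 15154 genes with enough reads to be tested. RNA-seq was performed on wild-type mouse embryonic fibroblasts (MEFs), primary connective tissue cells grown from C57BL/6J embryos after removal of the head, limbs and internal organs. The 4 groups were MEFs without compound and MEFs given 10 µM carbidopa, LY-364747 or CHIR-99021, with 2 libraries per group and the medium changed at intervals while the compound stayed present. Carbidopa inhibits aromatic-L-amino-acid decarboxylase, and CHIR-99021 is a GSK3 inhibitor that switches on Wnt target genes. LY-364747 is the spelling of the sample labels, and the study's methods write LY-364947, an inhibitor of the TGF-beta type I receptor. The labels call the treated cells hepatic-like, but the summed level of 6 hepatocyte genes was low. In CPM, the count scaled by library size and TMM factor, it was 0.298 and 0.258 in MEFs and between 0.518 and 1.18 in the treated libraries, all above both MEF libraries. It came from 4 reads in each MEF library and 11 to 21 in the treated ones, none of the 6 had enough reads to be tested, and Serpina1a had 0 reads throughout. The highest of them was Hnf4a, a hepatocyte transcription factor, at 0.34 CPM on average, with 1 and 2 reads in MEFs and 6 to 10 in the treated libraries. For the RNA-seq, no source used here says that the replicates came from separate embryos or cultures, or how long the cells were treated, as the study's methods do for its PCR, so the p-values below measure the spread between these libraries, which may be technical.

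FGF ligands bind receptor tyrosine kinases together with heparan sulfate, and the receptors pass the signal through Ras, Raf and MEK to ERK. Fgf7 and Fgf10 are made by mesenchymal cells and act mainly on the epithelial splice form of Fgfr2, whereas Fgf2 acts on several receptors and is a growth factor of fibroblasts themselves. Sprouty proteins restrain the route upstream of ERK, Dusp6 removes the activating phosphates from ERK in the cytoplasm, and Etv4 belongs to the PEA3 family of ETS factors whose transcription follows FGF signaling. In the developing liver and other organs, FGFs from the mesenchyme signal to neighbouring epithelial cells. Counts per gene do not separate the epithelial and mesenchymal splice forms of the receptors.

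All 3 ligands and the receptor Fgfr2 had fallen, Spry2 had risen and Spry4 had fallen in each of the 3 treatments against MEFs. Fgfr1 rose with CHIR-99021 and was not called with the other compounds, a difference tested directly below. With carbidopa 1 member rose and 5 fell, where 18% of all genes tested rose and 19.7% fell. With LY-364747 1 rose and 5 fell, against 13.7% and 17.2% of all genes. With CHIR-99021 2 rose and 5 fell, against 18.7% and 20.1% of all genes. The median log2 fold change of the 10 members was -0.50, -0.57 and -0.23 in carbidopa, LY-364747 and CHIR-99021, beside medians of 0.04, 0.03 and 0.04 over all genes tested. A gene is said to have risen or fallen where the quasi-likelihood test of edgeR gave a p under 0.05 after Benjamini-Hochberg adjustment over all genes tested. The 3 comparisons share the same 2 MEF libraries, so their values are given side by side and are not independent of each other.

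**Figure D1:**
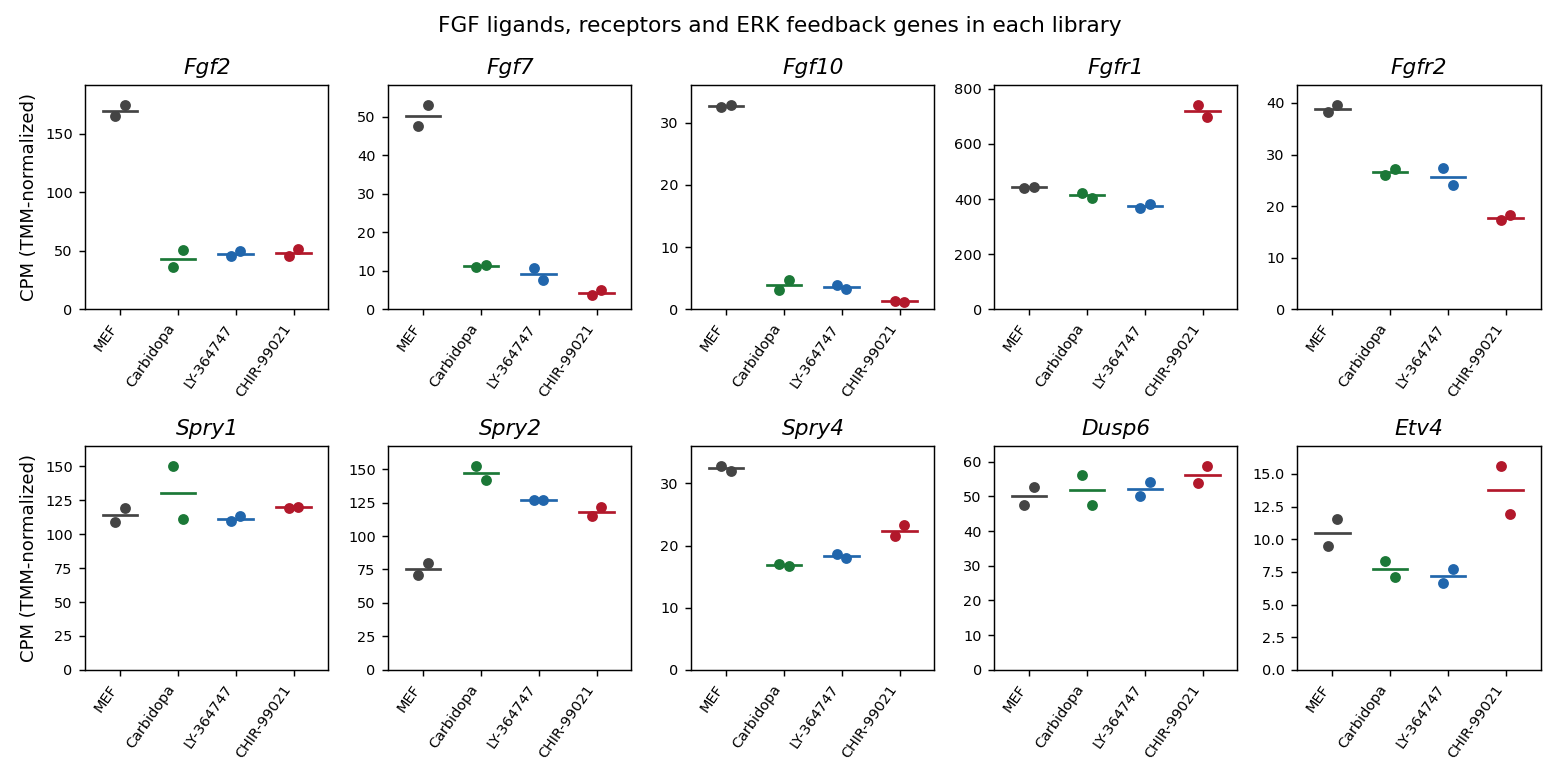
Level of each of the 10 genes (y axis, CPM scaled by TMM normalization, starting at 0) in the 4 groups (x axis), with a point per library and a line at the group mean. Fgf2, Fgf7, Fgf10, Fgfr2 and Spry4 lie lower in all 6 treated libraries than in both MEF libraries, Spry2 lies higher, and Fgfr1 stands at 740.4 and 697.3 CPM in CHIR-99021 against 441.8 and 442.3 CPM in MEFs.

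The libraries held 15039566 to 20504338 counted reads. The pair of carbidopa libraries differed most from each other, with a chi-square of 37.93 per degree of freedom over genes against 4.574 to 10.01 in the other pairs, so no pair was a library deposited more than once. The MEF libraries expressed the fibroblast genes that define them, with Fn1, which encodes fibronectin, at 19270 and 18680 CPM. They also held macrophage transcripts, with the lysozyme gene Lyz2 at 738.1 and 758.3 CPM. In bulk RNA, fewer cells of a type and less RNA per cell cannot be told apart.

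Fgf2 (ENSMUSG00000037225, chr3:37348346-37410108, plus strand, mm10) was the most abundant of the ligands per length of exon. Its level was 165.3 and 174.3 CPM in the MEF libraries, 35.87 and 50.43 CPM with carbidopa, 45.63 and 49.31 CPM with LY-364747 and 45.49 and 51.07 CPM with CHIR-99021. The 6 treated libraries were all below both MEF libraries and overlapped among the treatments. Fgf2 fell 3.93-fold with carbidopa (log2 fold change -1.98, SE 0.152, adjusted p = 4.308e-06, edgeR). It fell 3.58-fold with LY-364747 (log2 fold change -1.84, SE 0.151, adjusted p = 7.284e-06, edgeR) and 3.52-fold with CHIR-99021 (log2 fold change -1.81, SE 0.151, adjusted p = 7.847e-06, edgeR). The last exons of Fgf2 overlap those of Nudt6, a Nudix hydrolase gene on the opposite strand, over 640 bases, 9.44% of the Fgf2 exon length. Nudt6 had 9 to 55 reads per library against 762 to 2702 reads of Fgf2. Whether the counting used strand is not given in the sources used here.

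Fgf7 (ENSMUSG00000027208, chr2:126034658-126091185, plus strand), also called keratinocyte growth factor, was measured at 47.59 and 53.04 CPM in MEFs. It was at 11.02 and 11.38 CPM with carbidopa, 10.66 and 7.615 CPM with LY-364747 and 3.685 and 4.875 CPM with CHIR-99021. Both CHIR-99021 libraries were below every other library. The fall was 4.49-fold with carbidopa (log2 fold change -2.17, SE 0.172, adjusted p = 5.492e-06, edgeR), 5.51-fold with LY-364747 (-2.46, SE 0.177, adjusted p = 2.707e-06) and 11.8-fold with CHIR-99021 (-3.55, SE 0.194, adjusted p = 3.29e-07).

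Fgf10 (ENSMUSG00000021732, chr13:118669791-118792115, plus strand), the ligand that budding lung and limb require, was counted with 438 and 509 reads in MEFs, 67 and 102 under carbidopa, 68 and 62 under LY-364747 and 24 and 21 under CHIR-99021. As levels these were 32.57 and 32.84 CPM, 3.154 and 4.758 CPM, 3.817 and 3.302 CPM, and 1.382 and 1.219 CPM. The carbidopa and LY-364747 libraries overlapped, and the CHIR-99021 libraries lay below all others. Fgf10 fell 8.25-fold with carbidopa (log2 fold change -3.04, SE 0.196, adjusted p = 1.201e-06, edgeR), 9.18-fold with LY-364747 (-3.20, SE 0.201, adjusted p = 1.037e-06) and 25.0-fold with CHIR-99021 (-4.64, SE 0.232, adjusted p = 1.833e-07). It had the widest fall of the 10 members in each of the 3 comparisons. Fewer Fgf10 reads were counted for each Fgf7 read in treated cells, 0.286 and 0.418 with carbidopa, 0.358 and 0.434 with LY-364747 and 0.375 and 0.25 with CHIR-99021, against 0.684 and 0.619 in MEFs.

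The 250 bases upstream of the RefSeq start sites (GRCm38.p6) are shown for these 2 paracrine ligands, which fell furthest of the members, and for Spry2, the member that rose in every treatment. They read 5′ to 3′ on the strand of each gene and span chr2:126034408-126034657 (plus), chr13:118714449-118714698 (plus) and chr14:105896820-105897069 (minus). The Fgf10 start used by RefSeq lies inside the wider gene span given above.
Fgf7: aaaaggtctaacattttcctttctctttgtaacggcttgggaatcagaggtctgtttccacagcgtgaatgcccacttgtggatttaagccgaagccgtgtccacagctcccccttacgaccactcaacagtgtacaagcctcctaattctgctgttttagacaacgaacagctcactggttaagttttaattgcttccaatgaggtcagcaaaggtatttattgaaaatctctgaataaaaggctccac
Fgf10: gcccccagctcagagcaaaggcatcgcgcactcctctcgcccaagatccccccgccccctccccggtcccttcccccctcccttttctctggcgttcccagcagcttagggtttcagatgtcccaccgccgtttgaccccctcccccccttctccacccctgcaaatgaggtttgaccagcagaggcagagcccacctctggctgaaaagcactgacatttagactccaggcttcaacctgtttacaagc
Spry2: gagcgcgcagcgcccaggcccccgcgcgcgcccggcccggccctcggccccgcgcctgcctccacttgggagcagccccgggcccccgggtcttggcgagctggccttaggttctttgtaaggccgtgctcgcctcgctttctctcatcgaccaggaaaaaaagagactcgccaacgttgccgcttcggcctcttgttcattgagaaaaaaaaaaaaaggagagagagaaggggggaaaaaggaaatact
Nothing is in capitals because none of the motifs searched was found. Both strands of the window from 250 bases before to 50 bases after each start were searched for ETS (CCGGAAGT), the Capicua octamers (TGAATGAA and TGAATGGA), AP-1 (TGANTCA), TCF/LEF (CTTTGAT) and SMAD (GTCTAGAC). Of all 32851 RefSeq promoters, 3.89%, 1.3%, 1.21%, 7.81%, 3.73% and 0.213% held them, in that order. The 7 members with a promoter entry, which were those other than Fgfr1, Spry4 and Etv4, held no match. This says only that these letters are not in these windows. Other spellings of the motifs, among them other Capicua octamers and TCF/LEF sites, were not searched. The windows of Fgf7 and Fgf10 differ in base composition, with 43.6% and 61.2% G or C, and that of Spry2 has 62.4%, beside a median of 52.4% over all promoters.

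The falls of the ligands stood beside falls in markers of other cells in the same libraries. The summed level of 12 macrophage genes was 1095 and 1134 CPM in MEFs, 361.6 and 338.3 CPM with carbidopa, 252.1 and 257.3 CPM with LY-364747 and 82.33 and 91.34 CPM with CHIR-99021, and none of the 12 was at 0 in every library. Lyz2 alone made up 738.1 and 758.3 CPM of this sum in MEFs. Of the 11 macrophage genes tested, 10, 10 and 11 fell with carbidopa, LY-364747 and CHIR-99021, beside the shares of all genes given above. The summed level of 10 fibroblast genes was 35110 and 34770 CPM in MEFs, of which Fn1 alone made up 19270 and 18680 CPM. In the treated libraries the sum was between 8130 and 11720 CPM, with 8 of 10 lower and 1, Pdgfra, higher in each treatment. As a percentage of the MEF mean, Fgf7 was at 7.32 and 9.69 and Fgf10 at 4.22 and 3.73 with CHIR-99021, where the macrophage sum was at 7.39 and 8.2 and the fibroblast sum at 31.2 and 30.9. With carbidopa Fgf7 was at 21.9 and 22.6 and Fgf10 at 9.64 and 14.6, where the macrophage sum was at 32.4 and 30.4. Skeletal muscle genes summed to 32.05 and 31.68 CPM in MEFs and to between 8.1 and 13.2 CPM in treated libraries, mostly from Des, which encodes desmin. Endothelial genes summed to 10.4 to 15.1 CPM in all libraries, led by the VEGF receptor gene Kdr, with Cldn5 at 0 throughout. The 8 epithelial genes summed to 4.239 and 3.226 CPM in MEFs and to between 9.823 and 23.02 CPM in the treated libraries, led by the keratin gene Krt19. Of the 5 tested, 3, 1 and 3 rose with carbidopa, LY-364747 and CHIR-99021, beside the shares of all genes given above. Epcam, Cdh1 and Krt8 had too few reads to be tested. The part of any of these markers in the falls of the ligands was not tested.

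**Figure D2:**
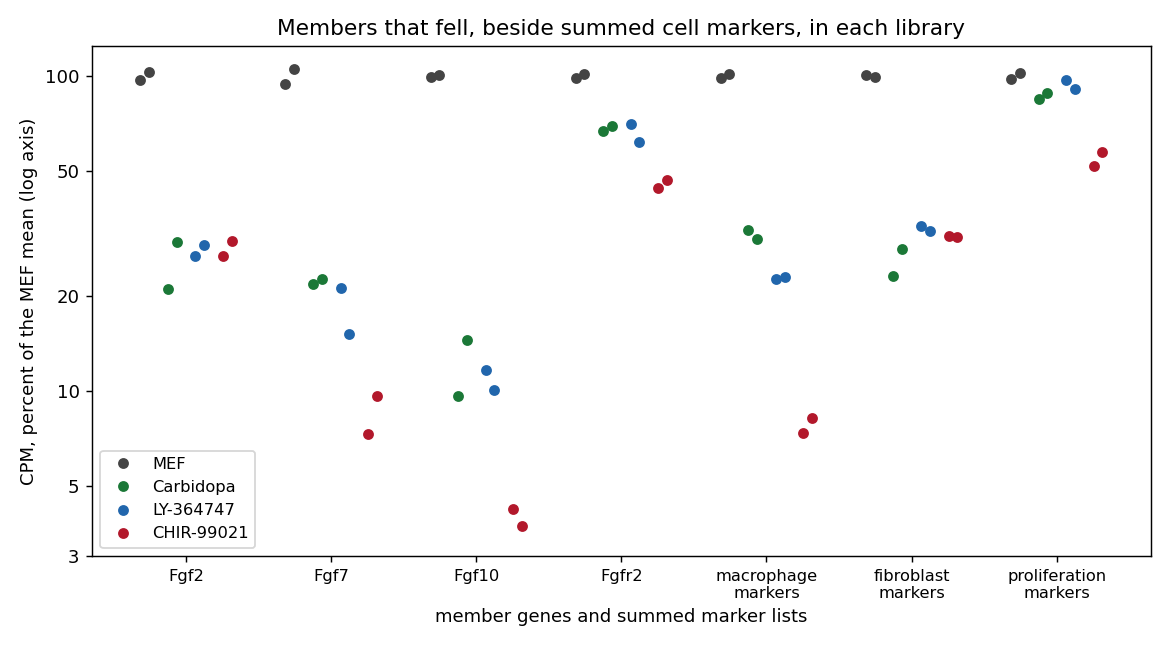
Levels of the 4 members that fell in the ligand and receptor groups, and the summed levels of 3 marker lists, as a percentage of the MEF mean on a log axis (y axis), with a point per library coloured by group. In CHIR-99021 Fgf7 and the macrophage sum both lie under 10 percent of the MEF mean, and in the treated libraries Fgf2 lies between 21.1 and 30.1 percent and the fibroblast sum between 23.3 and 33.5 percent.

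The receptors went apart. Fgfr1 (ENSMUSG00000031565, chr8:25513654-25575718, plus strand), the main FGF receptor of mesenchymal cells, had the highest level per length of exon of the 10 members in MEFs, 44.8 CPM per kb. Its level was 441.8 and 442.3 CPM in MEFs, 423.5 and 404.5 CPM with carbidopa, 368 and 381.6 CPM with LY-364747 and 740.4 and 697.3 CPM with CHIR-99021. It rose 1.63-fold with CHIR-99021 (log2 fold change 0.70, SE 0.0924, adjusted p = 0.000199, edgeR). The carbidopa libraries lay below both MEF libraries with a log2 fold change of -0.09 (95% interval -0.30 to 0.11, adjusted p = 0.4426, edgeR). With LY-364747 the log2 fold change was -0.24 (95% interval -0.44 to -0.03, adjusted p = 0.07662, edgeR), which did not pass the threshold.

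Fgfr2 (ENSMUSG00000030849, chr7:130162451-133123350, minus strand), the receptor of Fgf7 and Fgf10, was at 38.3 and 39.55 CPM in MEFs. It was at 25.98 and 27.1 CPM with carbidopa, 27.39 and 24.07 CPM with LY-364747 and 17.22 and 18.22 CPM with CHIR-99021. It fell 1.47-fold with carbidopa (log2 fold change -0.55, SE 0.113, adjusted p = 0.003552, edgeR), 1.51-fold with LY-364747 (-0.60, SE 0.113, adjusted p = 0.002421) and 2.2-fold with CHIR-99021 (-1.14, SE 0.116, adjusted p = 3.329e-05). The number of Fgfr1 reads for each Fgfr2 read was 11.5 and 11.2 in MEFs, 16.3 and 14.9 under carbidopa, 13.4 and 15.8 under LY-364747 and 43.0 and 38.3 with CHIR-99021. The RefSeq start of Fgfr2, just below the window chr7:130266809-130267058, lies inside the wider span given here, which covers all annotated transcripts. The Fgfr2 exons share 314 bases, 3.04% of their length, with Ctbp2 on the same strand, which encodes a transcriptional corepressor and had 345 to 550 reads per library beside 299 to 613 reads of Fgfr2.

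Among the Sprouty genes, Spry2 and Spry4 moved in opposite directions in the same libraries. Spry2 (ENSMUSG00000022114, chr14:105891947-105896819, minus strand) was at 70.57 and 80.14 CPM in MEFs, 152.3 and 141.7 CPM with carbidopa, 126.8 and 126.7 CPM with LY-364747 and 114.9 and 121.4 CPM with CHIR-99021. All 6 treated libraries lay above both MEF libraries. Spry2 rose 1.95-fold with carbidopa (log2 fold change 0.96, SE 0.103, adjusted p = 4.798e-05, edgeR), 1.68-fold with LY-364747 (0.75, SE 0.103, adjusted p = 0.0002945) and 1.57-fold with CHIR-99021 (0.65, SE 0.103, adjusted p = 0.0007081).

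Spry4 (ENSMUSG00000024427, chr18:38586247-38601415, minus strand) was at 32.79 and 32.07 CPM in MEFs, 16.99 and 16.79 CPM with carbidopa, 18.58 and 17.95 CPM with LY-364747 and 21.53 and 23.27 CPM with CHIR-99021. The 4 groups did not overlap. Spry4 fell 1.92-fold with carbidopa (log2 fold change -0.94, SE 0.112, adjusted p = 0.0001015, edgeR), 1.78-fold with LY-364747 (-0.83, SE 0.112, adjusted p = 0.0002629) and 1.45-fold with CHIR-99021 (-0.53, SE 0.111, adjusted p = 0.003671). For each Spry4 read there were 2.15 and 2.5 Spry2 reads in MEFs, 8.96 and 8.44 under carbidopa, 6.83 and 7.06 under LY-364747 and 5.34 and 5.22 with CHIR-99021.

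Spry1 (ENSMUSG00000037211, chr3:37639947-37644598, plus strand) did not pass the test in any comparison. It was at 108.9 and 119.5 CPM in MEFs, 150.3 and 111.4 CPM with carbidopa, 109.8 and 113.4 CPM with LY-364747 and 119.5 and 120.4 CPM with CHIR-99021. The carbidopa libraries, which differ from each other more than the other pairs do, spanned the widest range. The log2 fold change was 0.20 with carbidopa (95% interval -0.10 to 0.50), -0.03 with LY-364747 (95% interval -0.33 to 0.27) and 0.07 with CHIR-99021 (95% interval -0.23 to 0.37). Without carbidopa replicate 2, the value for carbidopa was 0.40, and without carbidopa replicate 1 it was -0.037. A transcript of unknown coding status on the opposite strand, Gm42922, covers 24.4% of the Spry1 exon length and had 6 to 17 reads per library.

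Dusp6 (ENSMUSG00000019960, chr10:99263231-99267489, plus strand) was at 47.37 and 52.65 CPM in MEFs, 56.25 and 47.49 CPM with carbidopa, 50.01 and 54.05 CPM with LY-364747 and 53.72 and 58.73 CPM with CHIR-99021. The carbidopa and LY-364747 libraries overlapped with the MEF libraries, the CHIR-99021 libraries lay above both, and no comparison passed the test. The 95% interval of the log2 fold change was -0.21 to 0.32 with carbidopa, -0.21 to 0.32 with LY-364747 and -0.10 to 0.43 with CHIR-99021.

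Etv4 (ENSMUSG00000017724, chr11:101769742-101785371, minus strand) had the fewest reads of the members in MEFs, 127 and 179, or 9.444 and 11.55 CPM. It was at 8.332 and 7.137 CPM with carbidopa, 6.623 and 7.722 CPM with LY-364747 and 15.6 and 11.9 CPM with CHIR-99021. The carbidopa and LY-364747 libraries were below both MEF libraries and the CHIR-99021 libraries above both, yet none of the 3 comparisons with MEFs passed the test. The log2 fold change was -0.44 with carbidopa (95% interval -0.87 to -0.01, adjusted p = 0.09593, edgeR), -0.55 with LY-364747 (95% interval -0.99 to -0.11, adjusted p = 0.05709) and 0.39 with CHIR-99021 (95% interval -0.03 to 0.81, adjusted p = 0.1322).

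**Figure D3:**
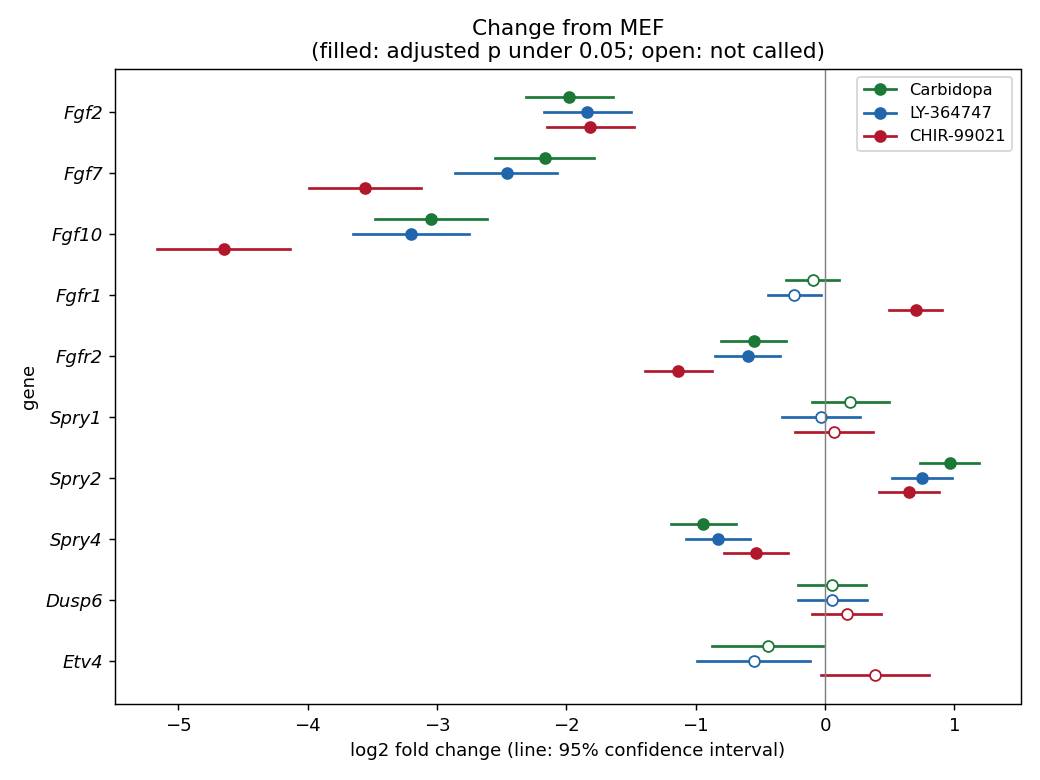
Log2 fold change of each gene against MEFs (x axis) for the 3 treatments, with the 95% confidence interval as a line, filled points where the adjusted p was under 0.05. The intervals of Fgf2 overlap one another and those of Fgf7 and Fgf10 lie further from 0 with CHIR-99021, while Spry1 and Dusp6 stay near 0 and Fgfr1 is filled on the right for CHIR-99021 alone.

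Per kb of exon, the order of the genes in MEFs was Fgfr1 at 44.8 CPM per kb, Spry1 at 39.3, Spry2 at 36.1, Fgf2 at 25.0, Dusp6 at 16.0, Fgf7 at 15.5, Fgf10 at 7.11, Spry4 at 6.82, Fgfr2 at 3.77 and Etv4 at 3.38. With carbidopa Spry2 was highest at 70.4 CPM per kb, followed by Spry1 at 45.0 and Fgfr1 at 41.9, and Fgf10 was lowest at 0.86. With LY-364747 Spry2 was again highest at 60.8 and Fgf10 lowest at 0.774. With CHIR-99021 Fgfr1 led at 72.8, Spry2 followed at 56.6 and Fgf10 was lowest at 0.282. Neighbours in the MEF order whose libraries overlapped were Spry1 and Spry2, Dusp6 and Fgf7, and Fgfr2 and Etv4, and with carbidopa the libraries of Spry1 and Fgfr1 overlapped. The length is that of all annotated exons of a gene merged, so levels of genes with several transcript forms are approximate.

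The treatments were next compared directly, which involves no MEF library in the contrast. Of the 10 members, 6 differed between CHIR-99021 and carbidopa, 3 higher and 3 lower in CHIR-99021, where 14.7% of all genes tested differed. Between CHIR-99021 and LY-364747 5 differed, 2 higher and 3 lower, beside 14.1% of all genes. Between LY-364747 and carbidopa 0 members differed by edgeR, with 0 at an unadjusted p under 0.05 and 0 by DESeq2, and of all genes 0.0132% were called. That low count rose without carbidopa replicate 2 but hardly without carbidopa replicate 1. The log2 difference of Fgf2 between LY-364747 and carbidopa was 0.40 without carbidopa replicate 2 and -0.088 without carbidopa replicate 1. For Spry1 these values were -0.43 and 0.0024. The smallest adjusted p of a member in that last comparison was 0.5191, for Spry2, with a log2 difference of -0.21 (95% interval -0.44 to 0.01).

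Fgf7 and Fgf10 were lower with CHIR-99021 than with either other compound. The log2 difference from carbidopa was -1.39 for Fgf7 (SE 0.198, adjusted p = 0.001422, edgeR) and -1.60 for Fgf10 (SE 0.258, adjusted p = 0.002683, edgeR). From LY-364747 it was -1.09 for Fgf7 (SE 0.203, adjusted p = 0.006155, edgeR) and -1.45 for Fgf10 (SE 0.265, adjusted p = 0.005602, edgeR). The difference of Fgf2 was 0.16 from carbidopa (95% interval -0.17 to 0.50) and 0.02 from LY-364747 (95% interval -0.31 to 0.36), neither of which passed the test. Without carbidopa replicate 2 the difference from carbidopa was 0.43, and without carbidopa replicate 1 it was -0.059. In these comparisons too, 10 of 11 macrophage genes were lower with CHIR-99021, and their part in the result was not tested.

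The receptors and Etv4 separated CHIR-99021 from both other treatments as well. In the fit of all libraries Spry1, Spry2 and Dusp6 were not called in either comparison. Fgfr1 was higher by 0.80 on the log2 scale than with carbidopa (SE 0.0924, adjusted p = 0.0004192, edgeR) and by 0.94 than with LY-364747 (SE 0.0927, adjusted p = 0.0001698, edgeR). Fgfr2 was lower, with a log2 difference of -0.58 from carbidopa (SE 0.116, adjusted p = 0.008244, edgeR) and -0.54 from LY-364747 (SE 0.117, adjusted p = 0.01294, edgeR). Etv4 was higher by 0.83 than with carbidopa (SE 0.189, adjusted p = 0.0159, edgeR) and by 0.94 than with LY-364747 (SE 0.192, adjusted p = 0.009831, edgeR). Spry4 was higher by 0.41 than with carbidopa (SE 0.112, adjusted p = 0.03664, edgeR), a call that was lost in 4 of the 6 other analyses that kept all libraries and in 6 of the 8 with 1 library left out, and its difference from LY-364747 was 0.29 (95% interval 0.04 to 0.55, adjusted p = 0.1137, edgeR). Spry2 had a log2 difference of -0.32 from carbidopa (95% interval -0.54 to -0.09, adjusted p = 0.06508, edgeR). Without CHIR-99021 replicate 1, 3 members differed from carbidopa and 2 from LY-364747, while the calls over all genes went from 2227 to 715 and from 2143 to 663. Without LY-364747 replicate 1, 1 member differed between CHIR-99021 and LY-364747, with 669 calls over all genes. Without carbidopa replicate 2 the difference of CHIR-99021 from carbidopa was 0.43 for Fgf2, -0.32 for Spry1 and -0.36 for Spry2. Without carbidopa replicate 1 it was -0.059 for Fgf2 and 0.11 for Spry1. Over all fits with 1 library left out, that of Spry2 ranged from -0.36 to -0.26. Proliferation genes stood beside these results, with a summed level of 145.4 and 161.5 CPM in CHIR-99021 against 237.4 to 287.3 CPM in the other libraries, 6 of 8 lower than with carbidopa and 7 of 8 lower than with LY-364747, and led by the replication clamp gene Pcna. Their part in the result was not tested.

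**Figure D4:**
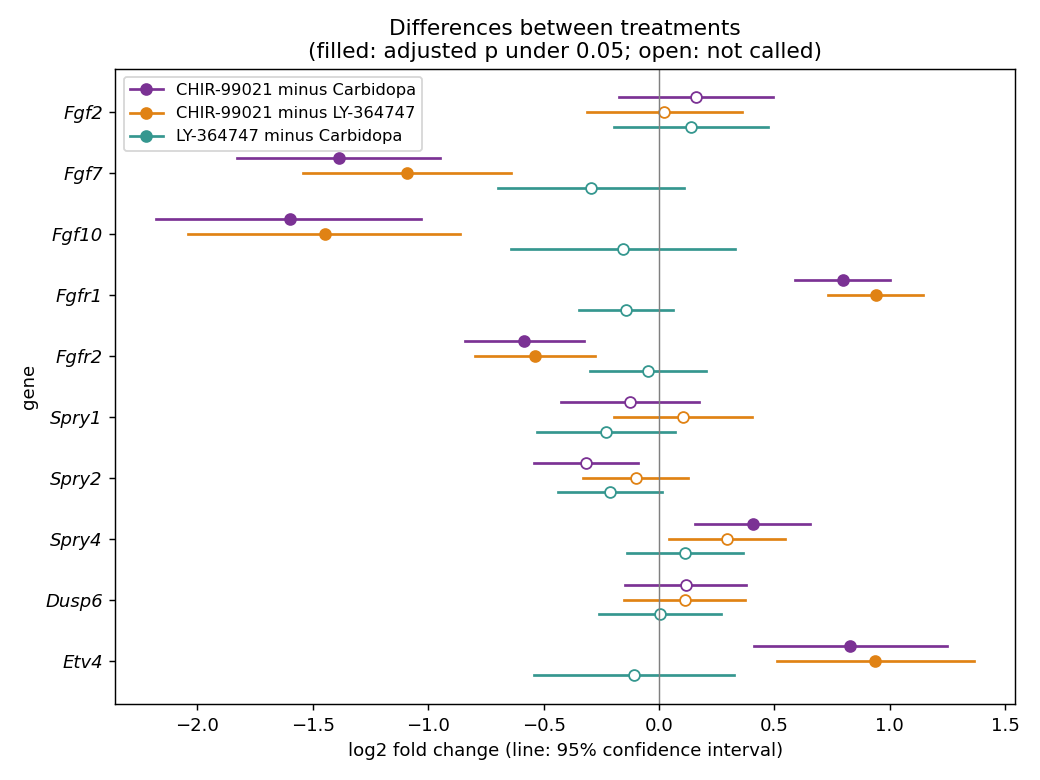
Log2 fold change between treatments (x axis) for the 10 genes, with 95% confidence intervals as lines and filled points where the adjusted p was under 0.05. All points for LY-364747 minus carbidopa are open, while Fgf7, Fgf10 and Fgfr2 lie left of 0 and Fgfr1 and Etv4 right of 0 in both differences of CHIR-99021.

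The rest of the route from FGF to ERK was read from 5 lists of 78 genes in all, of which 77 were listed in the table. Of 19 other genes of the FGF family, listed here as ligands, 7 had enough reads to be tested. They were Fgf1, Fgf9, Fgf11, Fgf12, Fgf13, Fgf14 and Fgf18, and Fgf11 to Fgf14 stay inside the cell and are not secreted ligands. None rose, and 4, 4 and 5 fell with carbidopa, LY-364747 and CHIR-99021, beside the shares of all genes given above. The median log2 fold changes were -1.89, -1.75 and -1.04 (0.04, 0.03 and 0.04 over all genes). Under the alternative filters the counts of genes that fell moved between 2 and 7. The largest fitted fall was that of Fgf9, which signals in the embryonic gonad and lung, with 13 and 33 reads in MEFs and 0 to 2 reads in every treated library. With treated libraries set at a floor of 3 reads each, the MEF mean of Fgf9 was 11.0-fold above carbidopa. It was 9.44-fold above LY-364747 and 8.93-fold above CHIR-99021. The MEF libraries differed, at 0.9667 and 2.129 CPM, so these values are not lower bounds of the fall. The median of the list was the same with Fgf9 set at these floor values.

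Of 17 other receptors, co-receptors and binding proteins, 12 were tested. With carbidopa 3 rose and 7 fell, with LY-364747 2 and 7, and with CHIR-99021 1 and 7, beside the shares of all genes given above. The medians were -0.38, -0.46 and -0.52. The heparan sulfate proteoglycan Gpc3, a glypican known from fetal liver, went against the list. Gpc3 was at 25.73 and 25.81 CPM in MEFs, 352.8 and 322.7 CPM with carbidopa, 346.7 and 325.9 CPM with LY-364747 and 159.5 and 171.5 CPM with CHIR-99021. It rose 13.1-fold with carbidopa (log2 fold change 3.71, SE 0.111, adjusted p = 5.442e-09, edgeR), 13.0-fold with LY-364747 and 6.42-fold with CHIR-99021. The largest fall was that of Flrt2, a membrane protein that binds FGF receptors, with carbidopa (2.93-fold, adjusted p = 4.896e-05, edgeR) and CHIR-99021 (3.07-fold, adjusted p = 3.523e-05), and that of the glypican Gpc1 with LY-364747 (2.88-fold, adjusted p = 4.407e-06).

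The 21 signal transducers from the adaptors to the kinases were all tested. With carbidopa 1 rose and 7 fell, with LY-364747 1 and 5, and with CHIR-99021 1 and 4, beside the shares of all genes given above, with medians of -0.19, -0.07 and -0.02. The gene that rose was Gab1 each time, a docking protein of receptor kinases, by 1.38-fold, 1.51-fold and 1.39-fold (adjusted p = 0.00693, 0.001637 and 0.005146, edgeR). Rasa1, the GTPase-activating protein that turns Ras off, had the largest fall, from 300.3 and 306.0 CPM in MEFs to between 96.71 and 115.5 CPM in treated libraries. It was 3.04-fold lower with carbidopa (adjusted p = 1.747e-06, edgeR), 2.86-fold lower with LY-364747 (adjusted p = 2.638e-06) and 2.96-fold lower with CHIR-99021 (adjusted p = 2.053e-06).

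Of 10 other feedback inhibitors tested, 4 rose and 3 fell with carbidopa, 4 and 4 with LY-364747, and 5 and 2 with CHIR-99021. These counts stand beside the shares of all genes given above. The medians in the treatments were -0.23, -0.16 and 0.44, in that order. Dusp9, an ERK phosphatase related to Dusp6, had the largest rise in each. It was at 0.967 and 0.903 CPM in MEFs, 5.555 and 4.478 CPM with carbidopa, 5.108 and 4.793 CPM with LY-364747 and 13.3 and 10.33 CPM with CHIR-99021. Dusp9 rose 5.34-fold with carbidopa (adjusted p = 6.54e-05, edgeR), 5.27-fold with LY-364747 (adjusted p = 7.75e-05) and 12.6-fold with CHIR-99021 (adjusted p = 2.168e-06). The FGF receptor antagonist Il17rd had the largest fall with carbidopa (1.95-fold, adjusted p = 0.0001407) and LY-364747 (1.67-fold, adjusted p = 0.0008947, edgeR), and Spred1, an inhibitor of Ras activation, with CHIR-99021 (1.49-fold, adjusted p = 0.005644, edgeR). In the direct comparisons 6 of these 10 genes were higher with CHIR-99021 than with carbidopa, and 6 than with LY-364747. In either, 0 were lower. Of all genes tested, 14.7% and 14.1% differed in either direction. The median log2 differences of the 10 genes were 0.64 and 0.48.

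Of 10 other genes that follow ERK activity, 1 rose and 5 fell with carbidopa, 1 and 4 with LY-364747, and 5 and 3 with CHIR-99021. The shares of all genes are those given above. Medians in the treatments were -0.41, -0.21 and 0.26, in that order. The ephrin receptor gene Epha2 had the largest rise in each, from 21.27 and 17.74 CPM in MEFs to 34.03 and 24.49 CPM with carbidopa, 27.62 and 29.5 CPM with LY-364747 and 56.48 and 49.62 CPM with CHIR-99021 (adjusted p = 0.02001, 0.03053 and 8.022e-05, edgeR). Egr1, an immediate early transcription factor, had the largest fall with carbidopa (3.5-fold, adjusted p = 7.811e-07) and LY-364747 (3.02-fold, adjusted p = 1.853e-06, edgeR). With CHIR-99021 the largest fall was that of Epha4 (5.63-fold, adjusted p = 6.294e-07, edgeR). Between treatments 3 of the 10 were higher and 1 lower with CHIR-99021 than with carbidopa, and 5 higher and 1 lower than with LY-364747. Over all genes tested, 14.7% and 14.1% differed in either direction. No gene of the 5 lists was called between LY-364747 and carbidopa, where 0.0132% of all genes were called. As stated above, that low count depended on which carbidopa library was left out.

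The gene whose log2 level followed each member most closely over the 8 libraries, among 10681 genes with a mean of at least 5 CPM, was found by Pearson's r. The points share libraries, groups and normalization, so r is a description. The genes were Nrp2, a semaphorin co-receptor, for Fgf2 (r = 0.998), the myeloid lectin gene Cd33 for Fgf7 (r = 0.997), Serpinb8 for Fgf10 (r = 0.999), the chaperone gene Hspa4 for Fgfr1 (r = 0.99) and Reps2 for Fgfr2 (r = 0.999). They were 2410004B18Rik for Spry1 (r = 0.979), Mmgt2 for Spry2 (r = 0.996), Lox, which encodes the collagen cross-linking enzyme lysyl oxidase, for Spry4 (r = 0.997), Pomk for Dusp6 (r = 0.945) and Lrrfip1 for Etv4 (r = 0.98).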

How the data were processed

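RNA-seq libraries of MEFs and of MEFs treated with carbidopa, LY-364747 or CHIR-99021 (2 per group) were analysed. Reads had been mapped to mm10 with STAR 2.4.2a and assigned to genes with featureCounts by the authors, who deposited unnormalized counts of reads per gene. The annotation release and strand setting are not given in the sources used here. The labels name a SMARTER library kit and the methods a NEBNext kit.

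Counts were analysed in R 4.3.3 with edgeR 4.0.16, by its quasi-likelihood test after filterByExpr and TMM normalization. The 8 libraries entered 1 fit, with a term for group alone and 4 residual degrees of freedom per gene before moderation. Levels are TMM-normalized CPM, and SEs and 95% intervals come from the same fit. Calls required an adjusted p (Benjamini-Hochberg over 15154 genes) under 0.05. Total counts of 15039566 to 20504338 set the precision, intervals and floors cover counting error or library spread only, and 3 reads was the floor. Positions and exon lengths are from GENCODE M21 of GRCm38 (50354 of 50578 identifiers matched, 99.6%), and promoters are from RefSeq (GRCm38.p6).

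All members are named. From each other list and comparison with MEFs, the largest rise and fall among called genes with a mean of at least 1 CPM in the higher group are named, as are the most abundant marker of each cell type list, markers at 0 throughout, and the gene most like each member. The members and lists were chosen with earlier results of these data known. Alternatives were DESeq2 1.42.0, RLE size factors, no filter, a filter of 10 counts in every library, a replicate block, a fit of only the groups compared, and each library left out in turn. The script was tested on simulated data.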

Additional observations from a re-analysis of the deposited data

Results flagged for a closer look

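The change from MEFs of Fgfr1 and of Etv4 differed between CHIR-99021 and the other compounds by the direct test of the difference (edgeR, all 8 libraries). For Fgfr1 the log2 difference was 0.796 from carbidopa (adjusted p = 0.0004192) and 0.94 from LY-364747 (adjusted p = 0.0001698), with both CHIR-99021 libraries above the other 6. For Etv4 it was 0.83 from carbidopa (adjusted p = 0.0159) and 0.937 from LY-364747 (adjusted p = 0.009831), again with both CHIR-99021 libraries above the other 6, at 205 and 271 reads against 118 to 179. With 1 library left out, the difference of Etv4 ranged from 0.62 to 1.02 against carbidopa and from 0.73 to 1.12 against LY-364747, and passed the test in 7 and in 6 of 8 such fits.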

How the results depend on the processing

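In the comparisons with MEFs no call of a member was lost under any of the 14 alternatives, 6 with all libraries and 8 with a library left out. Of 840 values of members over 6 comparisons, 784 kept direction and side of the threshold, 21 lost a call, 16 gained one and 19 changed sign, all of these without a call in the reported analysis. The cause of these changes was not tested. Etv4 in LY-364747 was called with RLE size factors (adjusted p = 0.04583), with no filter (0.03485) and with the compared groups alone (0.0142), where Fgfr1 was too (0.00666). The call of Spry4 between CHIR-99021 and carbidopa was lost with DESeq2 (0.09522), no filter (0.08099), the compared groups alone (0.1765) and the replicate block (0.0587), and that of Fgfr2 with the compared groups alone (0.05943). Deviations of same-numbered libraries correlated at -0.16 to 0.13. With 2 libraries per group this cannot settle whether the numbers pair libraries. With the replicate block 6, 6 and 7 members were called against MEFs and 5, 5 and 0 between treatments.

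With at least 10 counts in every library, 2, 2 and 3 other genes of the FGF family were called with carbidopa, LY-364747 and CHIR-99021. With no filter 7 were called with LY-364747. This list, called ligands below, includes Fgf11 to Fgf14, which are not secreted ligands. With the compared groups alone, 12 and 10 transducers were called with LY-364747 and CHIR-99021. With no filter the difference of Dusp6 between LY-364747 and carbidopa was -0.011.

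With 1 library left out, the lone library of its group was assumed to vary like the others. Then 3 to 9 members differed between CHIR-99021 and carbidopa (715 to 4632 of all genes), 1 to 6 between CHIR-99021 and LY-364747 (663 to 4228) and 0 to 2 between LY-364747 and carbidopa (2 to 3816). The 2 were Fgf2 (0.40, adjusted p = 0.0204) and Spry1 (-0.43, adjusted p = 0.005682), without carbidopa replicate 2, when 3816 genes were called. Without it, Fgf2 (0.43, adjusted p = 0.011), Spry1 (-0.32, 0.01583) and Spry2 (-0.36, 0.01233) were also called between CHIR-99021 and carbidopa. The call of Spry4 there was lost without either library of MEFs, CHIR-99021 or LY-364747 (adjusted p = 0.07294 to 0.1873). Against MEFs the calls over all genes ranged from 3142 to 7996, 2841 to 6519 and 3433 to 7800 in carbidopa, LY-364747 and CHIR-99021. In carbidopa 6 to 10 receptors, 5 to 12 transducers, 4 to 9 feedback inhibitors and 4 to 10 output genes were called. In LY-364747 4 to 7 ligands, 5 to 10 receptors, 5 to 11 transducers, 3 to 8 feedback inhibitors and 3 to 6 output genes were called. In CHIR-99021 3 to 7 ligands, 3 to 9 transducers and 4 to 9 feedback inhibitors were called. Log2 fold changes that were not called with all libraries and changed sign ranged from -0.076 to 0.17 (Dusp6) and -0.037 to 0.40 (Spry1) in carbidopa, and from -0.019 to 0.13 (Dusp6) and -0.10 to 0.033 (Spry1) in LY-364747. Between CHIR-99021 and carbidopa they ranged from -0.059 to 0.43 (Fgf2) and -0.32 to 0.11 (Spry1), and between CHIR-99021 and LY-364747 from -0.056 to 0.11 (Fgf2). Between LY-364747 and carbidopa they ranged from -0.11 to 0.13 (Dusp6), -0.088 to 0.40 (Fgf2), -0.43 to 0.0024 (Spry1), -0.23 to 0.0075 (Etv4), -0.42 to 0.17 (Fgf10) and -0.13 to 0.043 (Fgfr2).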

Other observations

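Fgfr4, the FGF receptor of hepatocytes, had too few reads to be tested and was looked at after its values were seen. It had 0 and 1 reads in MEFs, 10 and 6 under carbidopa, 9 and 9 under LY-364747 and 5 and 8 with CHIR-99021. Fgf14, a member of the FGF family that stays inside the cell, was likewise chosen after its values were seen. It was at 24.91 and 24.45 CPM in MEFs and between 1.083 and 3.54 CPM in the treated libraries.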
